A study of Mus musculus with 6 samples.

Results

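The cytosolic ribosomal protein genes are the genes for the protein parts of the 60S (large) and 40S (small) ribosomal subunits. They were taken from the gene table by name: Rpl or Rps followed by a number, with the suffixes used for X-linked copies and paralogs, plus Rplp0, Rplp1, Rplp2 and Rpsa. This gave 89 of the 55421 genes in the table, 53 of the large and 36 of the small subunit. The genes were measured in the tongue epithelium of 6 mice by QuantSeq, which sequences mRNAs from their 3′ ends and gives 1 tag per molecule, so a value is not divided by gene length. The 3 control mice (WT) carried floxed alleles of the endoplasmic reticulum stress sensor Ire1α (IRE1F/F) and no Cre. Their 3 littermates (KO) also carried K14CreERT2, a tamoxifen-activated Cre driven by the promoter of keratin 14, a protein of basal keratinocytes. All 6 mice, controls included, received tamoxifen on 4 days and were killed on day 5. The mucosa was peeled off after 10 min of enzyme digestion at 37 °C, and each library was made from 1 such peel. The labels do not give the age of the mice.

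Each ribosome holds a single copy of nearly every one of these proteins, so cells make them in matched amounts and degrade the excess. Their mRNAs are among the most abundant in growing cells. Most begin with a run of pyrimidines, the 5′ terminal oligopyrimidine (TOP) motif, through which mTOR signalling controls their translation. In stratified epithelia such as the tongue, basal cells divide and make ribosomes, and cells moving up towards the surface fill with keratin.

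The libraries held 4606309 to 6286153 reads. Keratinocyte markers were all measured (14 of 14 tested), and their summed normalised read count, that is reads divided by 1 size factor per library, was 602595 to 790585 in WT and 811740 to 1126460 in KO. Of the 14, 12 had a log2 fold change above 0 (up to 1.19) and 2 below it (down to -1.25), and limma called none. DESeq2 called 5 higher and 1 lower, against 205 and 146 of all 10987 genes tested, and edgeR 1 higher, against 125. Of the skeletal muscle markers 6 of 12 passed the filter and Acta1 and 1 other were at 0, with a sum of 103 to 445 in 5 libraries and 2141 in KO replicate 1. Fibroblast markers (4 of 8 tested) summed to 1432 to 1969 in WT and 257 to 1167 in KO. Of the 4, 2 had a log2 fold change above 0 (up to 1.15, not called), and 1, the matrix proteoglycan gene Dcn, fell (limma, log2 fold change -2.06, adjusted p = 0.0152). Dcn made up most of the WT sums, with 1329 to 1856 in WT and 195 to 544 in KO. Erythrocyte markers (4 of 5 tested, 1 at 0) summed to 229 to 479 in WT and to 44.0, 73.4 and 1170 in KO, the last in KO replicate 1. Leukocyte markers (7 of 9 tested) summed to 236 to 393, endothelial markers (1 of 7) to 23.5 to 72.6 and salivary gland markers (1 of 9, 5 at 0) to 15.2 to 76.3. The targeted gene, Ern1, had normalised counts of 77.1 to 105 in WT and 78.0 to 123 in KO. A 3′ tag outside the deleted exons does not check the deletion.

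Of the 89 genes, 73 reached a normalised count of 10 in at least 3 libraries and were tested (43 of the large and 30 of the small subunit). All 73 were at 10 or more in every library, with 23.8 as the lowest value, so none was kept through 1 genotype alone. The 16 genes that were not tested included 13 at 0 in every library, where a count of 0 is compatible with as many as 3 reads (2.59 to 3.92 after normalisation). Of these 16, 6 are annotated as pseudogenes in GENCODE M21 and 4 are protein-coding paralogs. Rpl13, Rpl24, Rpl35, Rpl35a and Rps10 were also at 0 in every library. They encode proteins of every ribosome, so this says nothing about their expression. In the last 300 bases of their annotated transcripts, 62.5% to 96.0% of all 50-base words also occur in another annotated gene. The tested genes shared a median of 36.3% of these words (0 to 100%). Of them, 35 shared at least 50% and 23 shared none. The tails of Rpl24 and Rps10 also overlap another gene on the same strand, over 58.3% and 70.3% of their length. No tested gene has such an overlap. What left Rpl24, Rps10 and the other genes at 0 was not tested. Reads that match several genes can be dropped or divided in counting, so levels of the 50 tested genes with shared words are uncertain, and comparisons between genes are given with that limit. The words come from 1 annotated transcript per gene, and where the reads of a gene lie was not checked. A gene with no shared word is therefore not shown to be free of shared reads. Rpl31 and Rpl21, with no shared word, have 24 and 15 named pseudogenes.

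In KO epithelium nearly every ribosomal protein mRNA had a lower mean than in WT, and the difference was small. The log2 fold change, taken on log2(value + 1), was below 0 for 70 of the 73 genes (95.9%) against 50.9% of all 10987 genes tested. Its median was -0.38 for the ribosomal protein genes and -0.01 for all genes. The fold change lay between 0 and -0.25 for 20 genes, between -0.25 and -0.5 for 22 and below -0.5 for 28 (38.4%, against 11.9% of all genes). A single gene passed the test: Rpl5 fell (limma, Benjamini-Hochberg adjustment over all genes). The background share of genes called lower was 0.583%. None of the 73 was called higher, where the background was 1.22%. At an unadjusted p under 0.05, limma gave 24 lower and none higher, against a background of 6.84% lower. In 23 genes (31.5%) all 3 KO libraries were below all 3 WT libraries, against a background of 9.25%. No ribosomal protein gene had all KO libraries above all WT libraries, against a background of 9.84%. Ribosomal protein mRNAs vary together between libraries, so these counts are not those of independent genes.

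**Figure D1:**
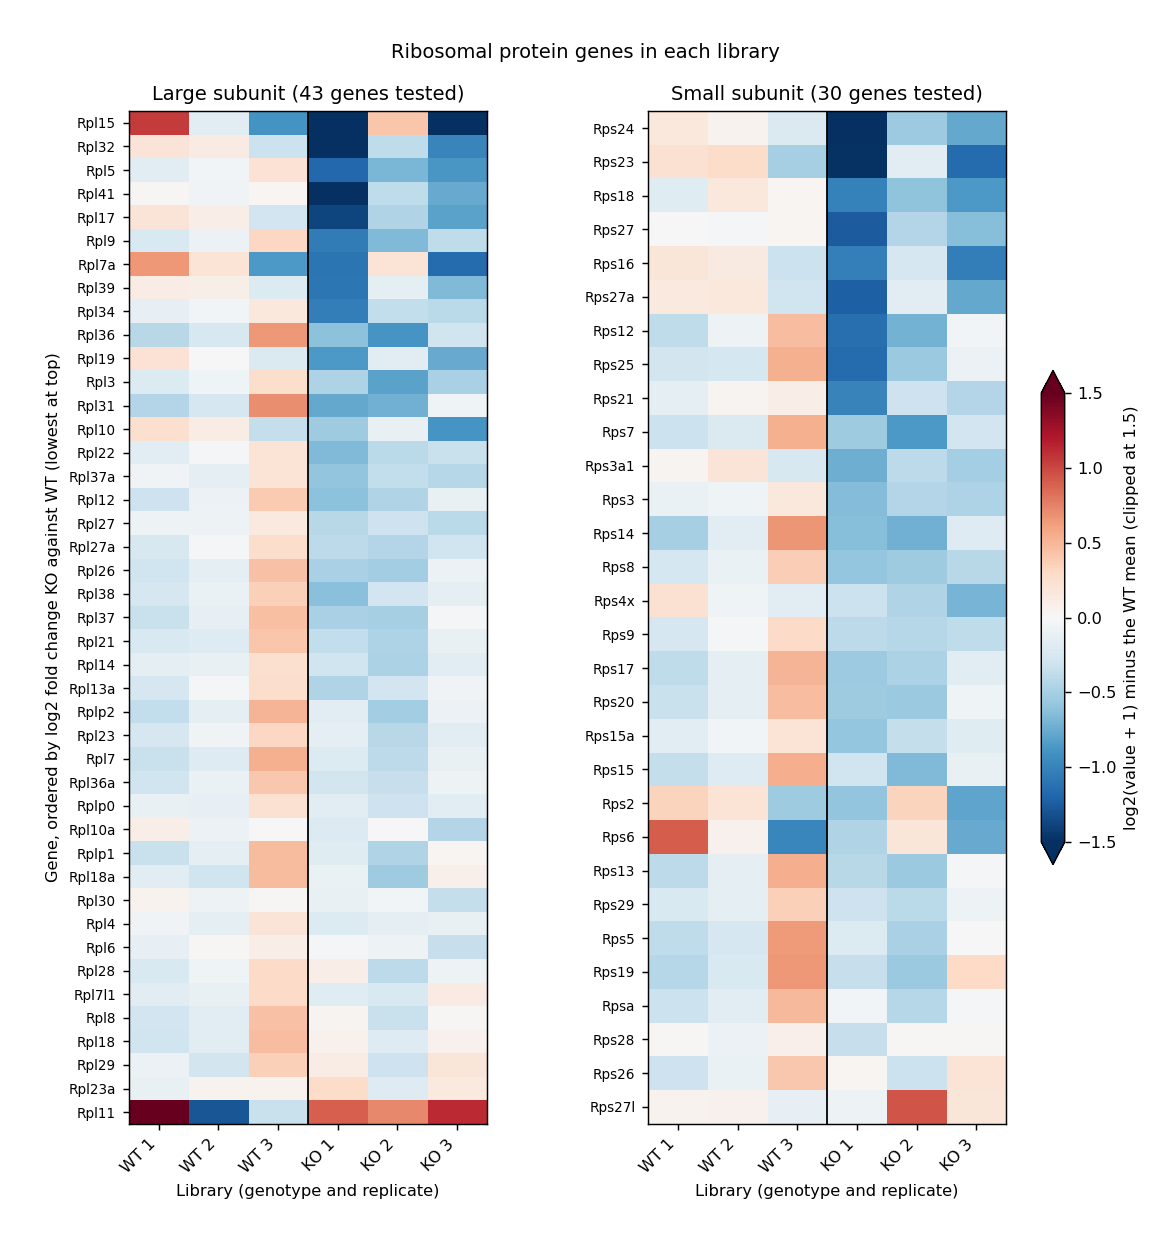
Each of the 73 tested ribosomal protein genes (rows, ordered by log2 fold change) in each of the 6 libraries (columns), as log2(value + 1) minus the mean of the 3 WT libraries, clipped at 1.5. The KO columns are mostly blue, KO replicate 1 most of all, WT replicate 3 is red for most genes, and a few rows such as Rpl15, Rpl7a and Rps6 are blue in WT replicate 3.

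The number of calls depended on the method. edgeR's quasi-likelihood test on the recovered reads called 1 gene lower, Rpl5, against a background of 0.592%. DESeq2 on the same reads called 7 lower, against a background of 1.29%: Rpl5, Rps18, Rps24, Rpl17, Rps27, Rpl32 and Rpl41. The authors' deposited table lists 6 of these genes, all lower in KO, among its 142 rows with a lower level (0.652% of the genes above 0 in a library). In that table the log2 fold changes were -0.91 for Rpl5, Rps24 and Rpl32, -0.84 for Rpl17, -0.82 for Rps18 and -0.74 for Rps27. Neither method nor the authors' table called a ribosomal protein gene higher.

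Rpl5 and Rpl11 encode the proteins that bind 5S ribosomal RNA. Outside the ribosome the same particle binds Mdm2 and holds back its action on p53. Rpl5 (chromosome 5, 107900502 to 107909005, plus strand, GRCm38) had normalised counts of 612, 666 and 797 in WT and 302, 426 and 375 in KO. The highest KO library was below the lowest WT library. The mean was 691 ± 95.1 in WT and 368 ± 62.0 in KO (SD, n = 3 each), and limma gave a log2 fold change of -0.92 ± 0.19 (SE) with an adjusted p of 0.0395. That call was kept without KO replicate 2 (limma adjusted p = 0.0440) and lost without each of the other 5 libraries in turn, with limma adjusted p-values up to 0.145, while the log2 fold change stayed between -1.03 and -0.78. In the annotated transcript used here, the last 300 bases of Rpl5 share no 50-base word with another gene and lie within Dipk1a on the opposite strand. Dipk1a had counts of 82.3 to 114 in WT and 53.1 to 98.2 in KO. The strand setting of the counting is not known, so reads of the pair cannot be told apart.

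Rpl11 (chromosome 4, 136028265 to 136053428, minus strand) stood at the opposite end. Its counts were 5958, 797 and 1537 in WT and 3615, 3189 and 4214 in KO. WT replicate 1 was above all 3 KO libraries and the other WT libraries were below them. In limma the log2 fold change was 0.91 ± 0.55 (SE), with an adjusted p of 0.537. It was 1.72 without WT replicate 1, where limma called it higher (adjusted p = 0.0151), and 0.27 without WT replicate 2. The last 300 bases of Rpl11 share no 50-base word with another gene.

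**Figure D2:**
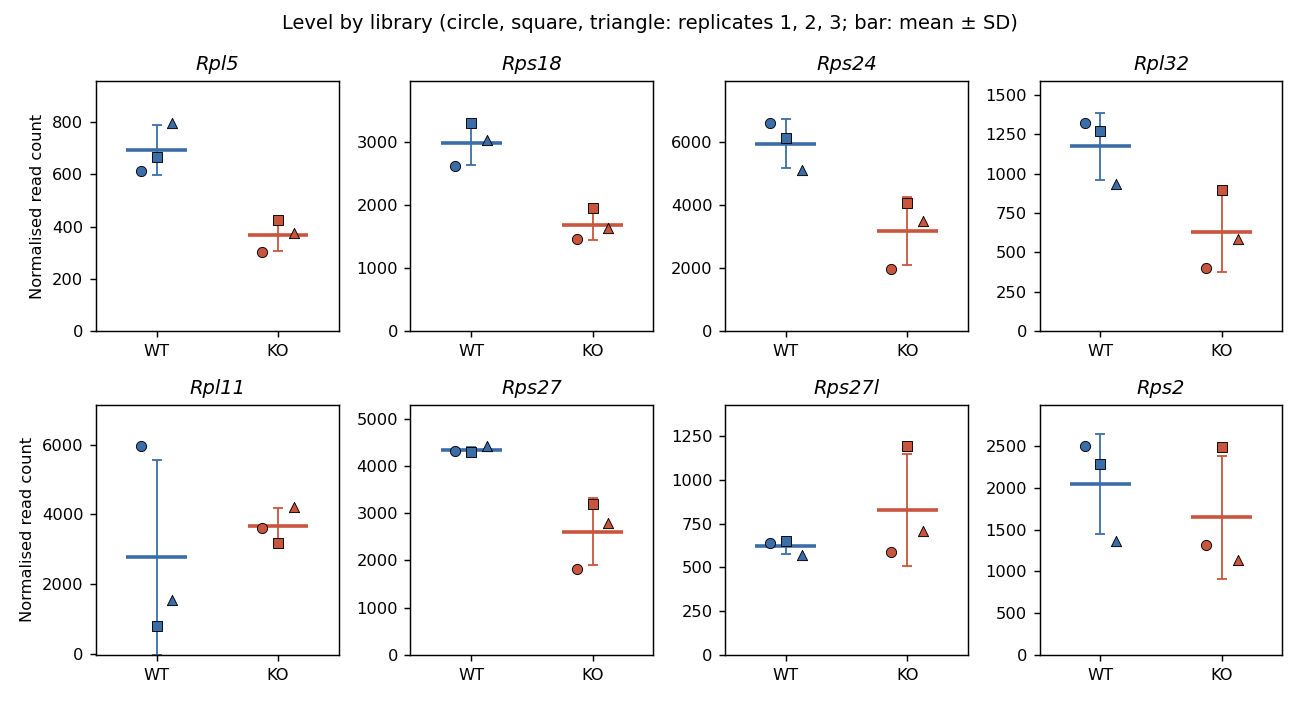
Normalised read counts of 8 ribosomal protein genes in the 3 WT and 3 KO libraries, with the mean and SD; circles, squares and triangles are replicates 1, 2 and 3. For Rpl5, Rps18, Rps24, Rpl32 and Rps27 every KO point is below every WT point, Rpl11 spreads from 797 to 5958 within WT, and for Rps2 and Rps27l replicate 2 is the highest KO point.

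The start of the mRNA is where most of these genes carry their shared regulatory sequence, and windows of 30 bases placed on the longest pyrimidine run near it are shown for the called gene, for genes with low fold changes, for Rpl11, for a paralog pair and for Rpl7a and Rps2, which were low in WT replicate 3 and high in KO replicate 2. They are RefSeq promoter sequences (GRCm38.p6), 5′ to 3′ on the transcribed strand, with the longest run of C and T that begins with C within 25 bases of the annotated start in capitals.
Rpl5 (chr5:107900500-107900529, plus strand): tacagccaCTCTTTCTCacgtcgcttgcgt
Rps18 (chr17:33955646-33955675, minus strand): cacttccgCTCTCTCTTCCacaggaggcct
Rps24 (chr14:24490668-24490697, plus strand): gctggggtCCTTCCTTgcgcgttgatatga
Rpl41 (chr10:128549150-128549179, minus strand): cgggccggCTCggaagtgacgacaccgagc
Rpl11 (chr4:136053358-136053387, minus strand): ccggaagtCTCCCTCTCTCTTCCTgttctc
Rps27 (chr3:90213629-90213658, minus strand): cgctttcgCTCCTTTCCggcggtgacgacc
Rps27l (chr9:66946056-66946085, plus strand): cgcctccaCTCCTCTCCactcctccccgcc
Rpl7a (chr2:26910787-26910816, plus strand): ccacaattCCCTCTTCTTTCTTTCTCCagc
Rps2 (chr17:24720059-24720088, plus strand): atctcgcgCTTCTTggagcactataaattg

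Positions count the annotated RefSeq start as the first base, with no position 0. The run begins at -2 in Rps18, Rps24 and Rps27, at -3 in Rpl41, at -12 in Rpl7a and at 5 in Rps2. It begins at -20 in Rpl5 and -22 in Rps27l, upstream of that start, and at 15 in Rpl11, so the windows of Rps27l and Rpl11 do not hold the start itself. The run is 9 bases long in Rpl5, 11 in Rps18, 16 in Rpl11 and 19 in Rpl7a, but 6 in Rps2 and 3 in Rpl41. Of the 89 genes, 64 had a promoter sequence. Of these, 38 (59.4%) held a run of at least 8 bases, counted on the transcribed strand only, against 17.0% of all 32851 promoters of the same length. The median longest run was 8 bases in the ribosomal protein genes and 5 in all promoters. A ribosomal protein gene with several promoters was counted by its longest run, while all promoters were counted singly. This can raise the share and the median of the ribosomal protein genes. The 31 tested genes with such a run and the 23 tested genes with a promoter and no such run had the same median log2 fold change, -0.38. Across the 54 tested genes with a promoter, run length and log2 fold change had a Pearson correlation of -0.004 (Spearman -0.07), as a description over genes of the same libraries.

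In the large subunit the other low fold changes belonged to Rpl15, Rpl32 and Rpl41. Rpl32 is often used as a reference gene in RT-PCR. Its counts were 1323, 1269 and 931 in WT and 403, 895 and 582 in KO, and the groups did not overlap (-0.96 ± 0.27 SE by limma, with an adjusted p of 0.123, and of 0.0323 without KO replicate 2). Its tail overlaps Cand2 on the opposite strand over 17.7% of its length. Rpl41, whose product is the shortest ribosomal protein, had 4126, 3933 and 4150 in WT and 1442, 3115 and 2401 in KO. The 3 WT libraries were close together and the KO libraries all lay below them (-0.88 ± 0.26 SE, limma adjusted p = 0.138). Rpl15 had a lower fold change (-1.18) and a far wider spread, with 224, 96.9 and 57.5 in WT and 23.8, 145 and 29.5 in KO, so the groups overlapped (limma adjusted p = 0.466).

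The exit tunnel, through which the new polypeptide leaves the ribosome, is lined or ringed at its mouth by 7 tested proteins (Rpl4, Rpl17, Rpl19, Rpl23a, Rpl26, Rpl31 and Rpl39). None of the 7 was called, 6 had a fold change below 0 and their median was -0.52. Rpl17 had 2156, 2019 and 1548 in WT against 725, 1387 and 1084 in KO, with no overlap (-0.88, limma adjusted p = 0.119). Rpl31, among the 3 large-subunit genes of highest level, had 5435, 6182 and 12015 in WT and 4351, 4473 and 7049 in KO. Its highest value was in WT replicate 3, and KO replicate 3 was above WT replicates 1 and 2. Rpl23a, a docking site for factors that act on the new chain, was one of the 3 genes with a fold change above 0 (0.07, and -0.02 without KO replicate 1). The tails of Rpl23a and Rpl31 lie within Tlcd1 and Tbc1d8 on the opposite strand, with the same limit as for Rpl5.

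The P-stalk, made of Rplp0, Rplp1 and Rplp2, recruits the translation elongation factors. Its 3 genes had fold changes of -0.22, -0.20 and -0.26, and none was called. Rplp0 had 3695, 3663 and 4682 in WT and 3548, 3218 and 3530 in KO, so all KO libraries lay below the WT libraries by a small margin. Rplp1, the most abundant large-subunit mRNA tested, had 13151, 14922 and 23083 in WT and 14578, 12083 and 16820 in KO, with overlapping groups and a fold change of 0.04 without WT replicate 3. Rpl18 and Rpl29, with fold changes of -0.02 and -0.01, were the large-subunit genes nearest to 0, and both were above 0 without WT replicate 3 (0.21 and 0.17).

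In the small subunit, Rps24, Rps23, Rps18 and Rps27 had the lowest fold changes. Rps18 sits in the head of the subunit, which contacts transfer RNA. It had 2613, 3306 and 3034 in WT and 1468, 1961 and 1641 in KO. No KO library reached a WT library, and the fold change of -0.82 ± 0.19 (SE) had a limma adjusted p of 0.0574. Rps24, mutated in some patients with Diamond-Blackfan anaemia, had 6609, 6139 and 5101 in WT against 1971, 4066 and 3481 in KO (-0.96 ± 0.27 SE, adjusted p = 0.117 by limma). These groups did not overlap either, and KO replicate 1 was the lowest library. Rps23, a protein of the decoding centre, had 1140, 1182 and 691 in WT against 348, 865 and 438 in KO. KO replicate 2 was above WT replicate 3, and the limma adjusted p was 0.212 with all libraries and 0.0399 without KO replicate 2.

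All 13 tested genes of the head had a fold change below 0, with a median of -0.39, and none was called. All 8 of the mRNA channel and decoding centre, 4 of which are also head genes, did so too, with a median of -0.35 and none called. Rps27a, which is made as a fusion with ubiquitin, had 1469, 1487 and 1077 in WT and 567, 1188 and 783 in KO. KO replicate 2 was above WT replicate 3, and the fold change was -0.72 (limma adjusted p = 0.239). The most abundant ribosomal protein mRNAs of all were in this subunit. Rps14 had 19142, 23871 and 42784 in WT and 17319, 16409 and 23566 in KO. Rps12 had 20014, 24804 and 35933 in WT and 11909, 15944 and 25418 in KO. Rps26 had 16624, 19252 and 27381 in WT and 21003, 16435 and 23760 in KO. In these 3 genes WT replicate 3 was the highest library and the groups overlapped. Rps26 was nearest to 0 of the small-subunit genes (-0.03), followed by Rps28 (-0.10), Rpsa (-0.17) and Rps19 (-0.20). Of these 4, Rps26, Rpsa and Rps19 had a fold change above 0 without WT replicate 3 (0.17, 0.08 and 0.13), and Rps28 without KO replicate 1 (0.02).

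By subunit, the median log2 fold change was -0.34 over 43 large-subunit genes and -0.44 over 30 small-subunit genes. In 13 large-subunit and 10 small-subunit genes the KO libraries all lay below the WT libraries. The mean log2 level of large-subunit genes minus that of small-subunit genes was -0.81, -0.93 and -0.85 in the WT libraries and -0.71, -0.82 and -0.82 in the KO libraries. Means were -0.86 ± 0.06 and -0.78 ± 0.07 (SD, n = 3 each), so the genotypes overlapped and differed by 0.08.

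**Figure D3:**
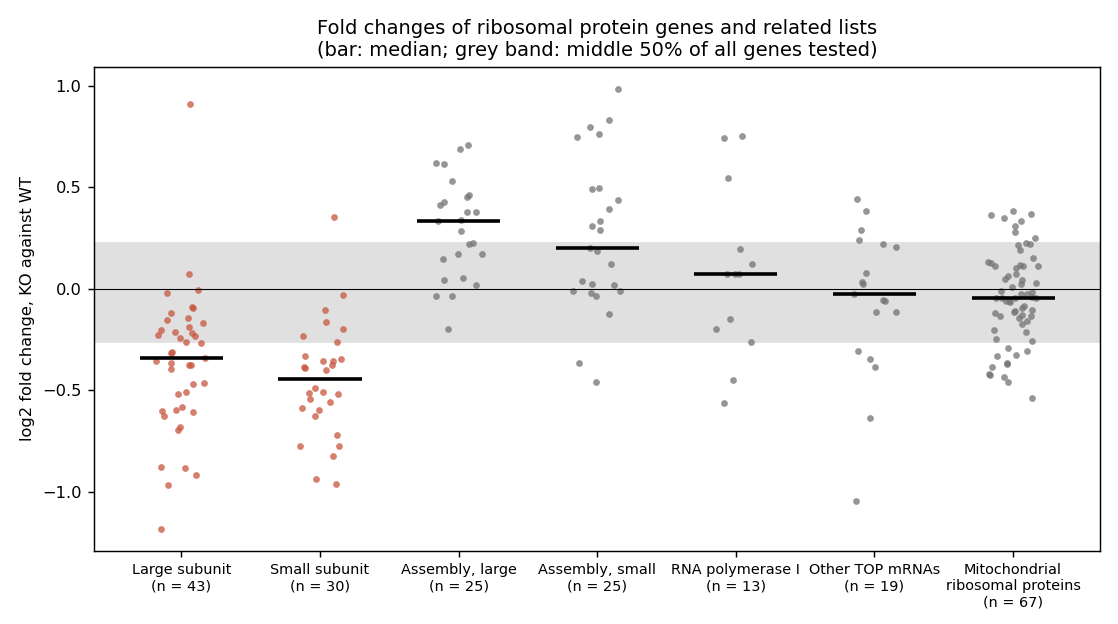
Log2 fold change of KO against WT for each tested gene of the 2 ribosomal subunits and of 5 related lists; the bar is the median and the grey band the middle 50% of all genes tested. Both subunits lie mostly below 0 (medians -0.34 and -0.44), the large-subunit assembly factors mostly above it (0.33), and the mitochondrial ribosomal proteins around it (-0.04).

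Several ribosomal proteins have a paralog with a different expression pattern. Rps27l, which p53 induces and which can replace Rps27, had 642, 650 and 569 in WT and 588, 1191 and 705 in KO. It was the only small-subunit gene with a fold change above 0 (0.35, limma adjusted p = 0.595), and KO replicate 2 was the highest library. Rps27 had 4310, 4302 and 4416 in WT against 1821, 3206 and 2800 in KO (-0.77, adjusted p = 0.131 by limma). All KO libraries were below the WT libraries, which were close together. The log2 ratio of Rps27l to Rps27, in which a library's scale factor cancels, was -2.75, -2.72 and -2.95 in the WT libraries and -1.63, -1.43 and -1.99 in the KO libraries. The difference was 1.13, a 2.18-fold higher ratio in KO, with all 3 KO libraries above all 3 WT libraries. The two-sided exact permutation p was 0.1, the smallest that 3 libraries against 3 can give, and 0.2 after adjustment over the 2 pairs tested. In its last 300 bases Rps27 shares all its 50-base words with 9 other genes, and Rps27l shares 21.9% with 2.

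For Rpl7l1 and Rpl7, the other pair tested, the log2 ratio was higher in KO by 0.14 (two-sided exact permutation p = 0.4, also after adjustment) and the groups overlapped. Rpl7l1 had 208, 218 and 286 in WT and 208, 201 and 255 in KO. Of the paralogs that were not tested, Rpl10l, Rpl39l and Rps4l were at 0 in every library. Rpl3l, the form of striated muscle, had 0, 2.62 and 2.61 in WT and 31.4, 1.72 and 2.86 in KO. Its high library, KO replicate 1, is the one with the high muscle markers, and the part of that in the value was not tested. Rpl22l1 had 77.3, 9.60 and 1.31 in WT and 0, 20.7 and 0.953 in KO, a wide range within each genotype, while its partner Rpl22 had 3429, 3805 and 4451 in WT and 2447, 2928 and 3063 in KO.

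As a share of all reads, the 89 genes made up 4.94%, 6.21% and 6.88% of the WT libraries and 4.02%, 4.35% and 5.06% of the KO libraries. The means were 6.01 ± 0.98% and 4.47 ± 0.53% (SD, n = 3 each), a difference of -1.54 percentage points. KO replicate 3 (95% Wilson interval 5.04 to 5.07%) was above WT replicate 1 (4.93 to 4.96%), so the genotypes overlapped. The intervals of the other libraries were 6.19 to 6.23% and 6.86 to 6.91% in WT replicates 2 and 3, and 4.0 to 4.03% and 4.34 to 4.37% in KO replicates 1 and 2. Intervals and floors cover counting error only. Leaving out 1 library at a time gave differences of -2.07 to -1.10 points. The large subunit took 2.48% of reads in WT and 1.91% in KO, and the small subunit 3.53% and 2.56%. Outside the 10 most abundant genes of the libraries, the difference was -1.71 points. In bulk tissue, fewer cells with many ribosomes and less ribosomal protein mRNA in each cell cannot be told apart.

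**Figure D4:**
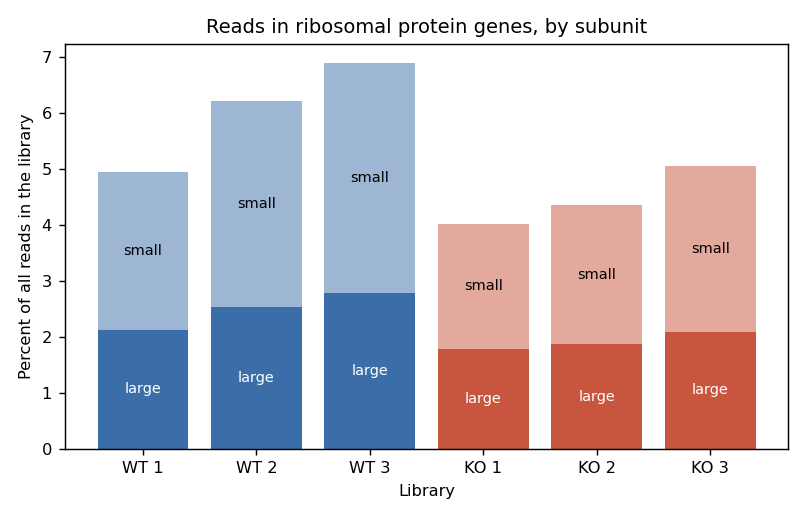
Percent of each library's reads in ribosomal protein genes, stacked by large and small subunit, in the 3 WT and 3 KO libraries. WT replicates 2 and 3 are the highest at 6.21% and 6.88%, KO replicate 1 the lowest at 4.02%, and KO replicate 3 (5.06%) stands just above WT replicate 1 (4.94%).

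Levels of these genes also differed between mice of the same genotype. WT replicate 3 held the highest value of 52 of the 73 genes, WT replicate 1 of 15 and WT replicate 2 of 4. KO replicates 1 and 2 each held 1. The lowest value was in KO replicate 1 for 31 genes, in KO replicate 2 for 30 and in KO replicate 3 for 8. Over all genes tested, each library held the highest value of 9.99% to 21.3%. Without WT replicate 3 the median log2 fold change was -0.20 and 58 of the 73 genes were below 0. KO replicate 1, with the most genes at their lowest, is also the library with the highest keratinocyte, muscle, erythrocyte, leukocyte and endothelial sums. Its fibroblast sum was the highest of the KO libraries, though below WT, where Dcn made up most of the sum. As a mean over the 4 tested fibroblast genes, the log2 deviation from the WT mean was 1.64 in KO replicate 1. It was -1.38 and -0.53 in KO replicates 2 and 3, and -0.14 to 0.15 in WT. The salivary gland sum of KO replicate 1 was the lowest of all. The part of these in its ribosomal protein levels was not tested. Without KO replicate 1 the median was -0.31 and 70 of 73 genes were below 0.

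The genes did not all follow the same library. Relative to WT replicates 1 and 2, WT replicate 3 was higher for 55 genes and lower for 18. Relative to KO replicates 1 and 3, KO replicate 2 was higher for 35 and lower for 38. Both sets of deviations ran in opposite directions: 37 genes were high in WT replicate 3 and low in KO replicate 2, and 17 were low in WT replicate 3 and high in KO replicate 2. Opposite signs were seen in 74.0% of the ribosomal protein genes and 63.5% of all genes. Across the 73 genes the deviations had a Pearson correlation of -0.86 (Spearman -0.82). Across all genes tested it was -0.40 (Spearman -0.37). Both are descriptions over genes of the same 6 libraries. The comparison was not planned. Over all genes this pair of libraries had the lowest correlation of deviations among all pairs of a WT and a KO library. The other pairs ran from -0.25 to 0.41.

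The 17 genes low in WT replicate 3 and high in KO replicate 2 included Rpl15, Rps6, Rpl7a, Rps23, Rps2 and Rpl32, of which Rpl7a and Rps2 were chosen after their values were seen. Rps6, the main ribosomal target of S6 kinase, was the least abundant gene tested, with 99.0, 55.0 and 26.1 in WT and 37.9, 59.5 and 30.5 in KO. Rpl7a had 1333, 975 and 465 in WT and 394, 978 and 379 in KO. Rps2, at the mRNA entry of the small subunit, had 2498, 2284 and 1369 in WT and 1313, 2493 and 1142 in KO. In all 3 the KO replicate 2 value was within the WT range, and WT replicate 3 was the lowest WT library. Rpl11 alone was low in both libraries. The GC content of the last 300 transcript bases had Pearson correlations with the deviations of 0.28 in WT and -0.35 in KO, transcript length of 0.01 and -0.01, and the share of words found in other genes of -0.14 and 0.09.

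**Figure D5:**
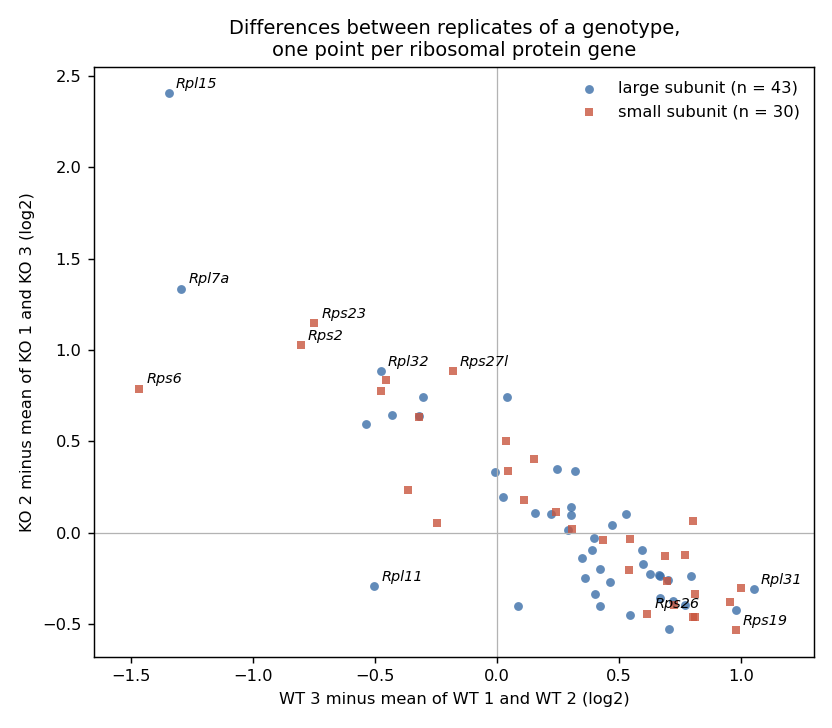
For each of the 73 tested genes, the log2 difference of WT replicate 3 from the mean of WT replicates 1 and 2 (horizontal axis) against that of KO replicate 2 from the mean of KO replicates 1 and 3 (vertical axis). Most points run from Rpl15, low in WT replicate 3 and high in KO replicate 2, to Rpl31 and Rps19 at the other end, and Rpl11 lies apart at the lower left.

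The libraries carry 2 styles of name in the labels, which do not say what the styles mean: a number (WT replicates 1 and 2, KO replicate 1) or a letter (WT replicate 3, KO replicates 2 and 3). Within the numbered libraries the median log2 fold change was -0.30 and 58 of 73 genes were below 0. Within the lettered libraries it was -0.57 and 67 were below 0. Over all genes the share below 0 was 49.9% and 50.8%. The fold change of Rpl5 was -1.08 and -0.99.

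Other lists of ribosome production genes had medians near or above 0, and limma called none of their tested genes. Of the 25 assembly factors of the large subunit, 22 had a fold change above 0 (median 0.33), and of the 25 of the small subunit, 18 (median 0.20). Heatr1, which acts in the first steps of small-subunit assembly, had 60.3, 92.5 and 75.7 in WT and 157, 137 and 112 in KO, without overlap (0.83, limma adjusted p = 0.111). Dkc1, the pseudouridine synthase of ribosomal RNA, had 215, 283 and 265 in WT against 633, 349 and 383 in KO (0.80, adjusted p = 0.144 by limma). The large-subunit assembly genes with the smallest p were Rrp1b (0.69) and Nop2 (0.71). The 13 genes of RNA polymerase I and its factors had a median of 0.07, led by Rrn3 (0.74) and Cd3eap (0.75). Among 11 genes of mRNA export and control of TOP translation, with a median of 0.11, Eif4ebp1, which encodes the translation repressor 4E-BP1, had 77.3, 119 and 101 in WT against 209, 182 and 130 in KO (0.80, adjusted p = 0.147 by limma).

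The 19 other genes known for TOP mRNAs, such as elongation factors, had a median fold change of -0.03, with 9 above 0. The low end was Tpt1, with 1590, 1429 and 1053 in WT against 490, 1003 and 554 in KO (-1.04, adjusted p = 0.0944 by limma), followed by Naca (-0.64). The 67 tested mitochondrial ribosomal protein genes, which serve the separate ribosomes of mitochondria, had a median of -0.04, with 27 above 0 and none called.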

How the data were processed

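Tongue epithelium of 3 WT and 3 KO mice was profiled. The authors deposited a table of normalised read counts per gene and library, a signal on a linear scale. The submitters' processing notes list 4 tools (FastQC, STAR, featureCounts, DESeq2) and no version of any. Genome build, annotation and strand setting: not given in the sources used here. A table of called genes that the authors deposited holds, per the file headers, log2 fold changes, the Wald statistic as a score, and p-values with their q-values.

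Every value was a whole multiple of 1 step per library (100% within 0.01 of a whole read), so whole reads were recovered. Values were transformed to log2(value + 1), keeping genes that reached 10 in 3 or more libraries (10987 of 21778 above 0). The difference of KO from WT was fitted in limma 3.58.1 (R 4.3.3) with an intensity trend, and p-values were adjusted by Benjamini-Hochberg at a threshold of 0.05. edgeR 4.0.16 and DESeq2 1.42.0 on the recovered reads were alternatives, and the fit was tested on simulated data. Other alternatives were the pseudocount, filter, scaling, a covariate for name style, a replicate block and leaving out each library; the split by name style and by shared sequence was chosen after seeing the data. The comparison of deviations in WT replicate 3 and KO replicate 2 was not planned either. No value column was left unmatched.

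Transcripts and gene positions are from GENCODE M21 (GRCm38), 1 transcript per gene, and promoters from RefSeq (GRCm38.p6). The ribosomal protein genes and all lists were chosen with earlier results of these data known, so lists are described by counts and medians. Named genes are those called, the 4 highest and 4 lowest fold changes and the 3 highest and 3 lowest levels of each subunit, the paralog pairs, the 5S, stalk and ubiquitin-fused genes, and the called genes and 2 smallest p of other lists; Rpl17, Rpl7a, Rps2 and the genes at 0 were added after their values were seen. Groups and replicate numbers come from the sample titles. Some genes are not reported here.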

Additional observations from a re-analysis of the deposited data

How the results depend on the processing

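Of 646 values of 34 single genes under the alternatives, 616 kept their direction and side of the threshold, 5 lost and 9 gained a call and 16 changed sign. The count of ribosomal protein genes called lower was 7 by DESeq2, 2 with the replicate block (Rpl5 and Rps18) and 0 to 3 without single libraries, and that called higher 0 to 1 (Rpl11, without WT replicate 1). Calls over all genes numbered 198 by limma, 371 by DESeq2, 82 with name style as a covariate and 68 to 186 without single libraries. Deviations of same-numbered libraries had correlations of -0.25, 0.03 and 0.28, and the highest of any pair was 0.41, for WT replicate 1 and KO replicate 2. Deviations within a genotype sum to 0, so these values cannot settle whether the replicate numbers pair the mice. The median log2 fold change of the ribosomal protein genes was -0.57 within the lettered libraries and -0.49 to -0.20 without single libraries. Signs changed for Rpl18 (0.019) and Rpl29 (0.010) under quantile normalisation. Over single libraries left out, the fold change ranged from -0.17 to 0.21 for Rpl18, -0.14 to 0.17 for Rpl29, -0.40 to 0.031 for Rpl7, -0.20 to 0.046 for Rpl7l1, -0.37 to 0.036 for Rplp1, -0.45 to 0.13 for Rps19, -0.19 to 0.17 for Rps26 and -0.33 to 0.075 for Rpsa, each highest without WT replicate 3. Without KO replicate 2 it was also above 0 for Rpl18 (0.065), Rpl29 (0.14) and Rps26 (0.12). The range was -0.17 to 0.019 for Rps28 and -0.024 to 0.21 for Rpl23a, whose signs changed without KO replicate 1, and -0.83 to 0.11 for Rps6, positive without WT replicate 1. The cause of these changes was not tested. Depth sets the floor of 2.59 to 3.92 normalised counts for genes at 0.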

Other observations

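Some ribosome components have names outside the Rpl and Rps pattern. Fau, which encodes the small-subunit protein eS30 fused to a ubiquitin-like domain, had 2147, 2271 and 3164 in WT and 1736, 1700 and 1853 in KO, with every KO library below every WT library and a log2 fold change of -0.50 that limma did not call. Rack1, a scaffold on the small-subunit head, had 6233, 7224 and 9167 in WT and 6592, 5716 and 6714 in KO, with overlapping groups.

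The table holds 322 rows named as pseudogenes of ribosomal proteins. They held 0.102%, 0.105% and 0.101% of WT reads and 0.0660%, 0.0869% and 0.0779% of KO reads. Of the 24 that passed the filter, 22 had a log2 fold change below 0, with a median of -0.43, and none was called by limma. Ribosomal protein genes with no shared 50-base word in their last 300 bases (23 tested) had 22 fold changes below 0, and those with shared words (50 tested) had 48.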
